A study of Petromyzon marinus with 4 samples.

Results

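Collagen VI stromal cells of the sea lamprey gonad were compared between 1 female and 1 male transformer, the animal that follows the larva at metamorphosis. A barcode was taken as such a cell when it held at least 1875 counts and 250 genes, had both COL6A1 and COL6A2 with at least 4 counts between them, and stayed below 2000 CPM (counts per 1000000 counts of the barcode) of the kidney tubule gene MIOX and below 400 CPM for the sum of 7 germ cell genes. This chose 3063 of 30202 female barcodes, 313 of 39824 male barcodes, 3415 of 19198 barcodes in larval library 1 and 3491 of 20097 in larval library 2. In all, 10282 of 109321 barcodes over the count and gene minimum were members. The values that chose them, COL6A1, COL6A2, MIOX, the germ cell genes and the counts per barcode, are given as description only.

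The series held 4 single-cell libraries of wild-caught, wildtype Petromyzon marinus of unknown age. One came from the gonad of a female transformer and 1 from that of a male transformer, both past metamorphosis, and 2 came from larvae whose gonads were undifferentiated and whose sex was not determined. Dissociation used a kit made for neurons, a flow sorter enriched the live cells, and messenger RNA was captured from its 3′ end with the PIPseq T20 kit, version 4.0. How many animals went into a library was not stated, so sex, animal and library cannot be told apart, and the differences below have no replicate check. No p-value is given. The pair of larval libraries, labelled as biological replicates, served as the yardstick for how far 2 libraries differ.

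Stromal cells build the connective tissue that surrounds the germ cells and the cells supporting them. Collagen VI is a microfibril-forming collagen assembled from several chains, which lies close to the cell surface in connective tissue. In jawed vertebrates the gonadal stroma also secretes factors that hold signals in check, among them antagonists of Wnt, activin and bone morphogenetic protein (BMP) ligands, and it takes part in the local supply of retinoids. The gene roles given below are known from mouse and human, and the symbols are those of the lamprey annotation.

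The collagen VI cells made up 10.1% of the female barcodes (95% exact binomial interval 9.80 to 10.5%) and 0.786% of the male barcodes (0.702 to 0.878%), against 17.8% (17.2 to 18.3%) in larval library 1 and 17.4% (16.8 to 17.9%) in larval library 2. The male library was rich in barcodes over the germ cell limit. Among barcodes under both limits the share was 11.6% (11.2 to 12%) in the female and 3.39% (3.03 to 3.78%) in the male. All intervals cover counting error only. The germ cell limit removed 2 female and 110 male barcodes that had passed the collagen VI step, and the MIOX limit removed 40 female and 0 male barcodes.

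The members' collagen VI content was low in both transformers. The median sum of COL6A1 and COL6A2 was 6 counts in female cells and 5 in male cells, against 23 in both larval libraries, and 21.7% of female cells, against 31.3% of male cells, sat at the minimum of 4. Cells at that minimum had 2766 CPM of SPARC in the female and 2819 in the male, and barcodes 1 count below it had 2634 and 2057 CPM. In the male the barcodes just below also held 1627 CPM of TNNC1, against 601 CPM at the minimum. The female values were 359 CPM just below and 185 CPM at the minimum. SPARC was thus high on both sides of the threshold, while TNNC1 differed across it in both transformers. Male COL6A3 also differed, with 13.2 CPM just below and 26.7 CPM at the minimum. Only these adjacent sums were compared, so whether the cells form a continuous range was not tested. A median member held 4900 counts (female), 3639 (male), 5137 (larva 1) or 5624 (larva 2), and all members together 20377685, 1647244, 23086297 and 26263469 counts in the same order. The male sum was the shallowest, and limits what can be said of genes with few male counts.

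No barcode sequence was a member in both transformers, and 1 was shared by the larval libraries. Many were nevertheless listed, nearly always with very few counts, in the other library of the same stage: 23.6% of the female and 16.6% of the male members, of which 23 and 5 had at least 10 counts there.

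The label was checked on stromal markers that had not chosen the cells. Of 19 such markers 6 were found in the feature lists. SPARC, which encodes a secreted collagen-binding glycoprotein, reached 3613 CPM in female and 3713 CPM in male members, against 396 and 110.2 CPM in the other barcodes of the same libraries. PRRX1, a transcription factor of mesenchymal cells, stood at 77.7 CPM in female and 67.4 CPM in male members, against 9.22 and 5.65 CPM in the other barcodes. Both markers, with the third collagen VI chain COL6A3 (45.0 CPM in female and 30.4 CPM in male members) and the PDGF receptor gene PDGFRA (10.1 and 18.8 CPM), were higher in members than in other barcodes of each library. VIM, the intermediate filament gene of mesenchyme, did not follow this in larvae, where members had 5.2 and 4.87 CPM and other barcodes 9.74 and 10.7 CPM. In the female VIM had 2.7 CPM in members and 2.47 CPM elsewhere. POSTN, a matricellular protein gene, had 33 counts in the female members and 0 in the male members, 1.62 and 0 CPM against 1.95 and 1.16 CPM in the other barcodes. Members of larval libraries 1 and 2 had 28.3 and 17.1 CPM of POSTN. Of the 6 markers, 4 were thus higher in members of each library, while VIM and POSTN were not higher in every library. The SPARC log2 ratio of female over male was -0.04, and -0.67 to 0.30 over 21 alternative settings of the processing.

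**Figure D1:**
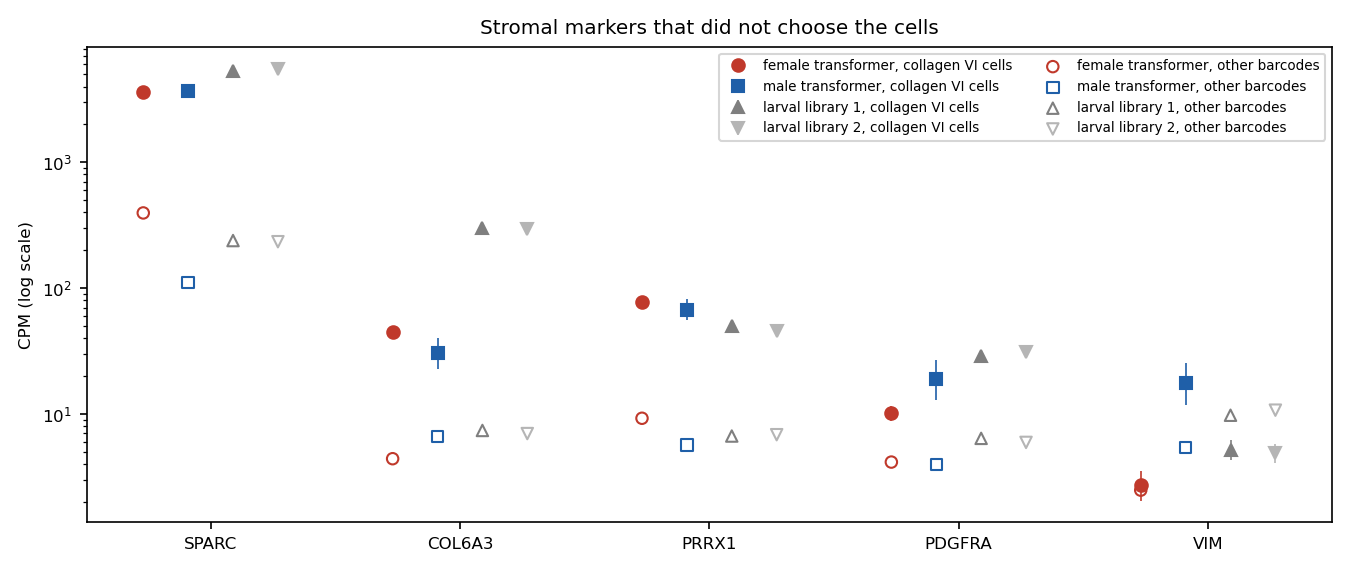
CPM (log scale) of 5 stromal markers in collagen VI cells (filled) and in all other barcodes over the minimum (open), for each library. Bars are exact Poisson 95% intervals of the summed count. SPARC, COL6A3, PRRX1 and PDGFRA are higher in collagen VI cells of each library, while VIM is lower in those of both larval libraries (5.2 and 4.87 CPM, against 9.74 and 10.7 CPM elsewhere).

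Counts were summed over the members of each library and 7345 genes with a mean of at least 5 CPM were compared. Past 2-fold, 543 genes were higher in the female (7.39% of those compared) and 262 were lower (3.57%), 11.0% in both directions together. Between the larval libraries 22 genes (0.3%) were past 2-fold. With the larval sums thinned to the depth of the female and the male sum, 148 genes (2.01%) were past it. With all 4 sums thinned to the male depth, the numbers were 1087 (14.8%) between the transformers and 385 (5.24%) between the larvae. The median absolute log2 ratio was 0.33 between the transformers, 0.12 between the larvae and 0.20 between the thinned larvae. More genes were thus past 2-fold between the transformers than between the larvae at matched depth. Thinning matched the summed counts only: the male sum came from 313 cells and the larval sums from 3415 and 3491, so the number of cells sampled was not matched.

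Much of this count rests on few male counts or on RNA that also lay outside cells. Of the 543 genes higher in the female, 436 had fewer than 20 male counts, whereas 4207 of all 7345 genes compared had at least 20. In 146 of the 543 the level in the female members was at or above that in female barcodes of 50 to 300 counts. Such barcodes are taken here as barcodes without cells. Of the 262 lower genes, 161 passed the same comparison in the male. Genes named below for their rank in this comparison all passed it. How many of all genes compared would pass it was not counted. A related filter, which dropped genes at or above their member level in barcodes without cells, kept 2276 of the 7345 genes. The 146 and 161 are therefore not read as a trait of the higher or lower genes. The larval levels lay above both transformers for 192 of the 543 higher genes, between them for 190 and below both for 122. For the 262 lower genes these numbers were 104, 102 and 31. Such orders were not counted over all genes compared, so they are not read as a trait of these genes.

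**Figure D2:**
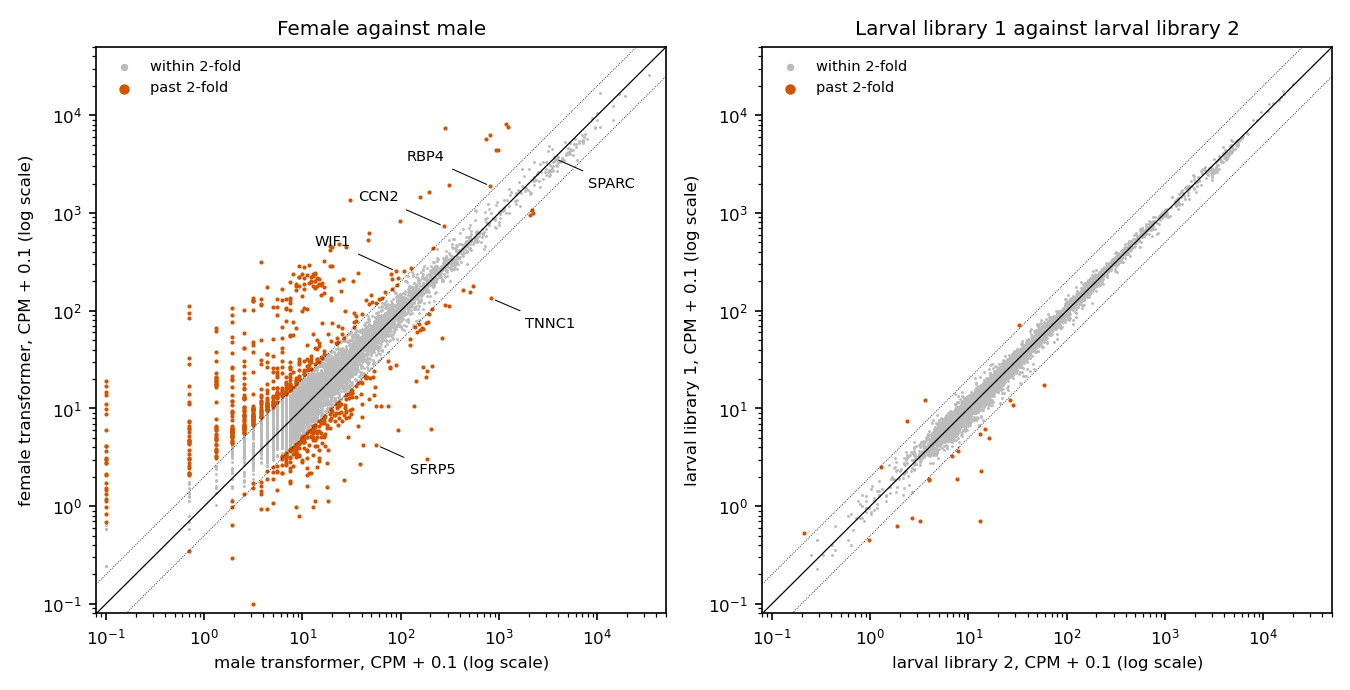
CPM plus 0.1 (log scales) of each gene compared, summed over collagen VI cells, in the female against the male (left) and in larval library 1 against larval library 2 (right). Solid lines mark equal levels, dotted lines 2-fold, and orange points genes past it, which number 805 on the left and 22 on the right; vertical stripes at the left edge are genes with few or 0 male counts.

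RBP4, the secreted carrier of retinol in blood, was abundant in the transformers and higher in the female. Members had 1885 CPM of RBP4 in the female and 818 CPM in the male, against 80.6 and 106 CPM in larval libraries 1 and 2. The log2 ratio of female over male was 1.20 (95% counting interval 1.13 to 1.28), and 0.36 in the other barcodes. With each cell thinned to 1875 counts, it was detected in 67.2% of female and 43.8% of male members. Without thinning the shares were 74.3% of female and 52.1% of male members. In the tubule and germ cell barcodes of the same libraries, thinned alike, the shares were 4.13% in the female but 25.8% in the male. These barcodes differ in make-up between the sexes. In all other barcodes MIOX had 2535 CPM in the female and 2.54 CPM in the male, and the germ cell gene PIWIL1 3.17 and 263 CPM. Shares in tubule and germ cell barcodes, here and below, are therefore not a like background for both sexes. The dehydrogenase gene DHRS9 had 16.3 CPM in female and 27.3 CPM in male members, and RARB, a retinoic acid receptor, had a log2 ratio of -0.08. With a stricter collagen VI minimum of 8 counts, which left 1085 female and 60 male cells, the RBP4 log2 ratio was 0.58.

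Secreted Wnt antagonists differed in both directions. WIF1, which binds Wnt ligands outside the cell, had 253 CPM in female members and 89.8 CPM in male members, against 2.38 and 1.64 CPM in the larvae. Its log2 ratio was 1.49 (1.26 to 1.74). After thinning 30.3% of female and 11.2% of male members had a WIF1 count, against 1.10% and 0.36% of tubule and germ cell barcodes and 0.44% and 0.34% of larval members. The larval tubule and germ cell barcodes gave 0.70% and 0.13%, so the member share lay below them in larval library 1 and above them in larval library 2. WIF1 was thus rare in larval members, and no level above background is read from it. In the transformers WIF1 was more frequent in the female than in the male. SFRP5, a frizzled-like Wnt antagonist, had 4.12 CPM in the female (84 counts) and 56.5 CPM in the male (93 counts), with 20.1 and 19.6 CPM in the larvae. Its log2 ratio of -3.77 (-4.22 to -3.33) placed the female below and the male above both larval libraries, and 0.85% of female and 6.71% of male members had a count after thinning. The female share lay beside 0.74% in tubule and germ cell barcodes and is read as background. The ratio was -1.85 without the cells that carry the subset genes named below, of which SFRP5 is one.

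The ligand gene WNT6 had 12.7 CPM in female members and 2.43 CPM in male members, but the male value is 4 counts and the female level in barcodes without cells was 46.4 CPM. AXIN1, a scaffold of the complex that degrades beta-catenin, had 167 female and 6 male counts (log2 ratio 1.06, interval 0.02 to 2.64). Of the 15 Wnt pathway features compared, 3 were past 2-fold higher (WIF1, WNT6 and AXIN1), 1 was lower (SFRP5), and the other 11 were within it. Their median log2 ratio was 0.41. CTNNB1, which encodes beta-catenin, had a log2 ratio of 0.14, the stem cell receptor LGR5 0.61 and the frizzled receptor gene FZD3 -0.64.

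In the TGF-beta, activin and BMP pathway the genes past 2-fold higher in the female encode extracellular binders of ligands. FST encodes follistatin, which binds activin. It had 26.5 CPM in female members (541 counts) and 7.28 CPM in male members (12 counts), against 1.73 and 3.85 CPM in the larvae, a log2 ratio of 1.81 (1.05 to 2.83). BMPER, a secreted BMP modulator, had 195 female and 5 male counts, a log2 ratio of 1.52 (0.41 to 3.30), but was higher outside members in the female, at 38.8 CPM. The ligand gene MSTN had 42 female and 19 male counts, the male counts all lay in at most 10 cells, and with the count minimum of a barcode doubled its log2 ratio of -2.50 became 0.10. Of the 15 genes compared 2 were past 2-fold higher, 1 was lower, and the median log2 ratio was 0.34. The receptor genes BMPR1B (0.18), BMPR2 (0.13) and TGFBR2 (-0.14) and the ligand gene TGFB2 (-0.56) had log2 ratios within 2-fold.

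Within the hedgehog, PDGF, FGF and IGF list, IGFBP7 and VEGFC had the highest ratios. IGFBP7, a secreted protein that binds insulin-like growth factors, had 1038 CPM in female and 582 CPM in male members, against 124 and 117 CPM in the larvae, a log2 ratio of 0.83 (0.74 to 0.93). The lymphatic growth factor gene VEGFC had 38.5 CPM in female and 20.03 CPM in male members, against 12.6 CPM in each larval library. None of the 6 hedgehog, PDGF, FGF and IGF genes compared was past 2-fold, and their median log2 ratio was 0.24. The call depended on the setting: the IGFBP7 ratio was 0.42 at the stricter collagen VI minimum and 1.20 without the cells that carry the subset genes named below, VEGFC ran from 0.34 to 1.14 over the alternatives, and PDGFRA, at -0.92, reached -1.27. HES1, a target of Notch signalling, had 117 CPM in the female and 48.0 CPM in the male, with 72.3 and 72.7 CPM in larval libraries 1 and 2. Its log2 ratio of 1.28 (0.96 to 1.63) placed the female above and the male below the larvae, and without the cells that carry the subset genes it was 0.97. JAG1 (0.30) and NRARP (-0.07), the other Notch pathway genes compared, had log2 ratios within 2-fold.

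Among matrix genes few were past 2-fold. CCN2, a matricellular protein gene also known as CTGF, had 729 CPM in female members and 276 CPM in male members, against 315 and 354 CPM in the larvae. Its log2 ratio was 1.40 (1.27 to 1.54), and 1.25 to 1.5 over the alternatives. CCN2 was detected in 47.2% of female and 20.8% of male members after thinning, against 6.71% and 0.71% of tubule and germ cell barcodes. SPON2, a secreted spondin, had 359 female and 7 male counts (log2 ratio 1.95, interval 0.99 to 3.38), a ratio of 0.21 at the stricter collagen VI minimum. THBS1, the adhesive glycoprotein thrombospondin, was at the edge of 2-fold in the other direction, with 14.1 CPM in the female and 27.9 CPM in the male, far below the 199 and 193 CPM of the larvae. It was past 2-fold lower at the stricter collagen VI minimum (-1.63) and without the 5% of members with most counts (-1.16). With the count minimum of a barcode doubled, the THBS1 ratio was within 2-fold, at -0.64. HAPLN3, which links hyaluronan to proteoglycans, had 46.0 CPM in the female and 72.8 CPM in the male.

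No collagen chain compared was past 2-fold. COL6A3, COL7A1, COL14A1, COL22A1, COL24A1 and COL4A6 were compared, their log2 ratios ran from 0.06 to 0.96, and the median was 0.35. At the stricter collagen VI minimum the COL6A3 ratio was -0.48 and that of COL14A1 -0.69. COL24A1 came nearest to 2-fold, with 21.8 CPM in the female and 10.9 CPM in the male. It was past 2-fold under several alternatives, at 1.53 with the stricter collagen VI minimum and 1.11 without the 5% of members with most counts. With the count minimum of a barcode doubled, the COL24A1 ratio was 0.84. COL6A1 and COL6A2, which chose the cells, had 644 and 488 CPM in the female, 710.3 and 453 CPM in the male and 2481 CPM and 1536 CPM or more in the larvae. Of 17 other matrix genes 3 were past 2-fold higher (CCN2, SPON2 and POSTN) and 0 lower, with a median log2 ratio of 0.12. POSTN rests on 33 counts against 0, with an interval that begins at -0.55. None of the 7 collagen processing enzymes, 5 matrix proteases and inhibitors or 7 integrin, cadherin and junction genes compared was past 2-fold, and their medians were 0.23, -0.04 and 0.11.

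**Figure D3:**
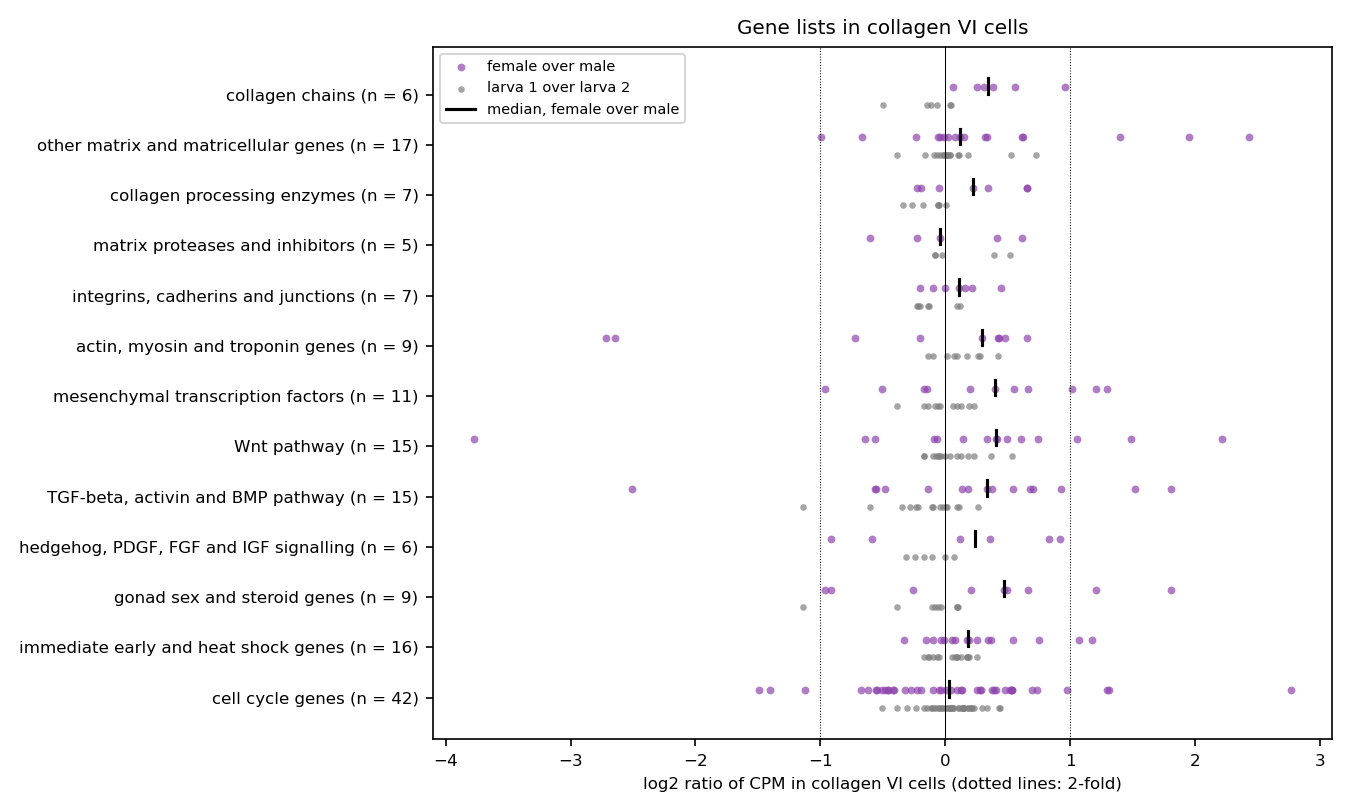
Log2 ratio of CPM in collagen VI cells for each gene compared in 13 lists, female over male (purple) and larva 1 over larva 2 (grey). Black bars mark the median of female over male and dotted lines mark 2-fold. Most genes lie within 2-fold in both pairs; the gene furthest below is SFRP5 (-3.77) and the furthest above CCNB2 (2.77).

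Transcription factors and genes with a role in gonadal sex were mostly within 2-fold. FOXP2 had 68.3 CPM in female members and 33.4 CPM in male members, against 16.6 and 15.9 CPM in the larvae, a log2 ratio of 1.02 (0.64 to 1.45). PITX1 had 350 female and 11 male counts, a log2 ratio of 1.30 (0.51 to 2.38), and 0.80 without the cells that carry the subset genes. EMX2, a homeobox gene needed for gonad formation in mice, had 128 female and 4 male counts and its interval of -0.02 to 3.27 includes equal levels. At the stricter collagen VI minimum its ratio was -0.38. WT1, another gene needed for gonad formation in mice, had 5.74 CPM in female and 10.9 CPM in male members. Of the 11 mesenchymal transcription factors compared 3 were past 2-fold higher and 0 lower, with a median log2 ratio of 0.40. Of the 9 gonad sex and steroid genes compared 2 were higher (EMX2 and FST) and 0 lower, with a median of 0.47. All list medians stand beside 0.09 over all genes compared, and shares of 7.39% and 3.57% past 2-fold.

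Glutathione genes were among the genes lower in the female. GSTT2B, a glutathione transferase, had 74.1 CPM in female members and 179.7 CPM in male members, against 333 and 346 CPM in the larvae, a log2 ratio of -1.28 (-1.46 to -1.09). GCLM, the modifier subunit of the enzyme that starts glutathione synthesis, had 60.7 CPM in female and 146 CPM in male members, against 88.5 and 82.0 CPM in the larvae, a log2 ratio of -1.27 (-1.46 to -1.06). GCLM did not differ in this direction outside the members, where its log2 ratio was 0.34, and kept between -1.49 and -1.02 over the alternatives. GSTT2B weakened to -0.37 at the stricter collagen VI minimum, to -0.42 without the cells that carry the subset genes and to -0.64 as a mean over cells. With the count minimum of a barcode doubled it was -1.65. These genes were picked by their rank and no list of glutathione genes was compared.

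TNNC1, given below, was past 2-fold lower, as were SFRP5 and VIM, which had fewer than 100 male counts. Further symbol-bearing genes that ranked among the lowest with at least 100 male counts were within 2-fold. They were SMIM7 (-0.95), the glutamine synthetase gene GLUL (-0.78), PPFIBP1 (-0.76), ENPP2 (-0.70), the RNA polymerase II subunit POLR2A (-0.69), the mitochondrial insertase gene OXA1L (-0.68), HAPLN3 (-0.67) and the chromatin protein gene HMGA2 (-0.64). ENPP2, the secreted enzyme autotaxin, had 69.9 CPM in female and 114 CPM in male members, against 23.4 and 21.6 CPM in the larvae. GLUL had 127 and 217 CPM in the transformers, against 484 and 455 CPM in the larvae. At the stricter collagen VI minimum the GLUL ratio was -0.05.

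TNNC1, the troponin C gene of slow and cardiac muscle in mammals, had 134 CPM in female and 837 CPM in male members, against 45.7 and 34.0 CPM in the larvae. The log2 ratio was -2.65 (-2.74 to -2.55). However, 61.6% of the male counts lay in 10 cells, and 10.4% of female and 19.2% of male members had a count after thinning. The ratio was 0.28 at the stricter collagen VI minimum, which left 60 male cells, -1.92 as a mean over cells and -2.31 without the 5% of members with most counts. VIM had 55 female and 29 male counts, 2.7 CPM in the female and 17.6 CPM in the male, a log2 ratio of -2.72 (-3.38 to -2.0). These 2 genes were the only ones of 9 actin, myosin, troponin and intermediate filament genes compared that were past 2-fold, both lower in the female, and the list's median was 0.30.

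Genes that ranked highest in the female mostly had few male counts. ASAH1, the lysosomal acid ceramidase, had 31.3 CPM in female members (638 counts) and 3.64 CPM in male members (6 counts), against 10.1 and 10.01 CPM in the larvae. Its log2 ratio was 2.99 (1.97 to 4.56), and 1.10 in the other barcodes. ESM1, the secreted proteoglycan endocan, had 47.0 CPM in the female and 14.6 CPM in the male, against 11.0 and 9.82 CPM in the larvae, a log2 ratio of 1.66 (1.11 to 2.34), while its ratio in other barcodes was -0.28. ARRB1, a beta-arrestin, had 481 female and 9 male counts (2.03, interval 1.17 to 3.25), and NAXD, a nicotinamide nucleotide repair enzyme, 455 and 12 (1.56, interval 0.80 to 2.58, and 0.03 at the stricter collagen VI minimum). INTS7, WFDC1, ISY1, GALT, FUT8 and SDF2 had 2 or 3 male counts each, and their intervals began between 0.19 and 1.34.

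**Figure D4:**
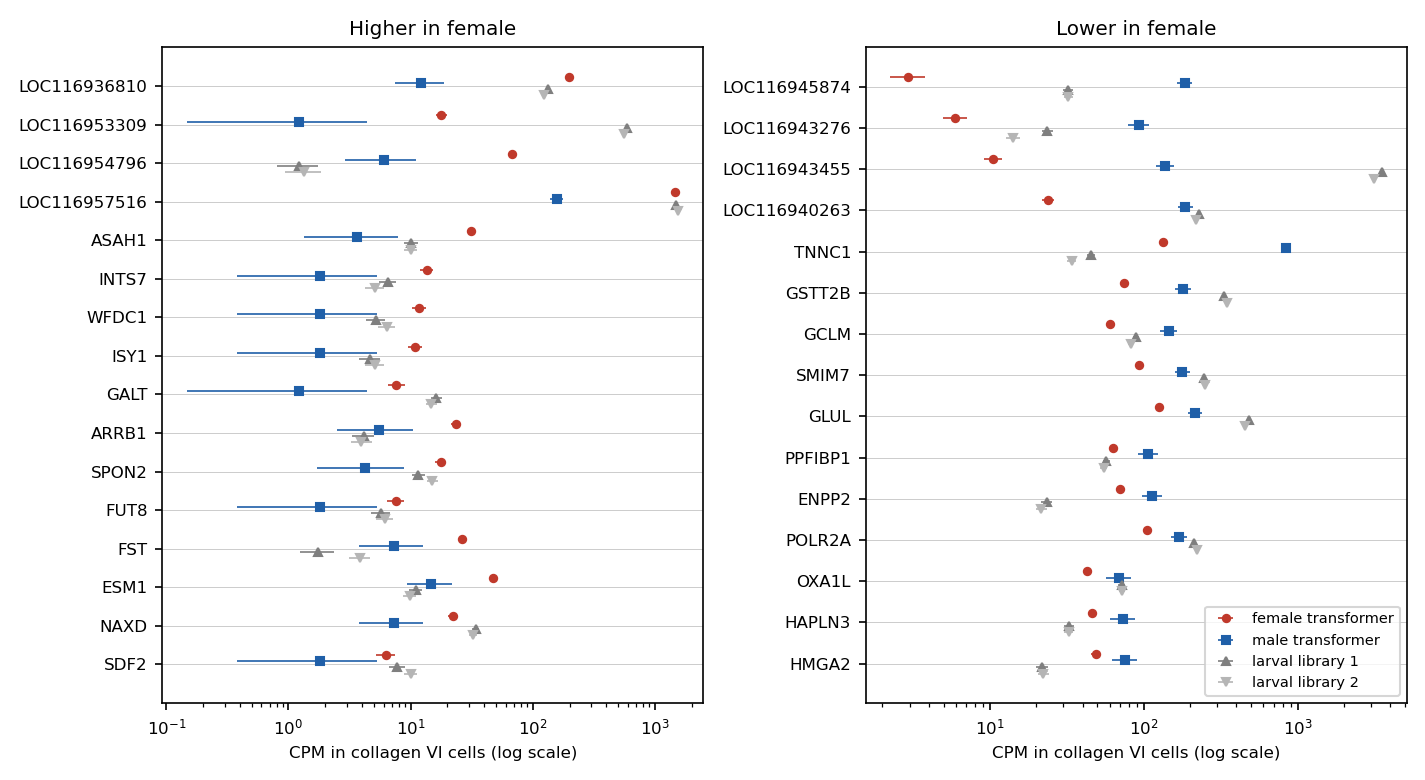
CPM (log scale) in collagen VI cells of each library for the genes that ranked highest (left) and lowest (right) by log2 ratio of female over male, among genes with a symbol and, apart, genes with a LOC number. Bars are exact Poisson 95% intervals of the summed count. Intervals are wide in the male on the left, where many genes rest on few counts, and narrow on the right; GSTT2B and GLUL are highest in the larvae.

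Genes with only a LOC number showed the widest ratios. LOC116957516 was abundant in the female and the larvae and low in the male, with 1454 CPM in female and 157 CPM in male members, against 1499 and 1553 CPM in the larvae. Its log2 ratio was 3.21 (3.03 to 3.39), and it was detected in 88.7% of female and 20.8% of male members after thinning. The same difference held outside the members, where it had 786 CPM in the female and 47.8 CPM in the male. LOC116936810 had the same order, with 196 CPM in female and 12.1 CPM in male members, and 151 and 4.32 CPM in the other barcodes. LOC116954796 had 67.9 CPM in the female, 6.07 CPM in the male and at most 1.33 CPM in the larvae. LOC116953309 had 364 female and 2 male counts.

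In the other direction LOC116945874 had 2.94 CPM in female members and 185 CPM in male members, against 32.1 and 32.3 CPM in the larvae, a log2 ratio of -5.97 (-6.40 to -5.57). Its ratio in the other barcodes was -4.46, 57.7% of the male counts lay in 10 cells, and without the cells that carry the subset genes its ratio was -2.35. LOC116943455 had 10.5 CPM in the female and 137 CPM in the male, against 3537 and 3125 CPM in the larvae, where it was one of the abundant genes. Its log2 ratio of -3.71 was -1.36 at the stricter collagen VI minimum. It was detected in 1.31% of female, 12.5% of male, 68.4% and 65.9% of larval members after thinning, and the female share lay beside 1.37% in tubule and germ cell barcodes. LOC116940263 had 23.9 CPM in the female and 186 CPM in the male, with 228 and 219 CPM in the larvae. LOC116943276 had 5.94 CPM in the female and 92.9 CPM in the male.

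**Figure D5:**
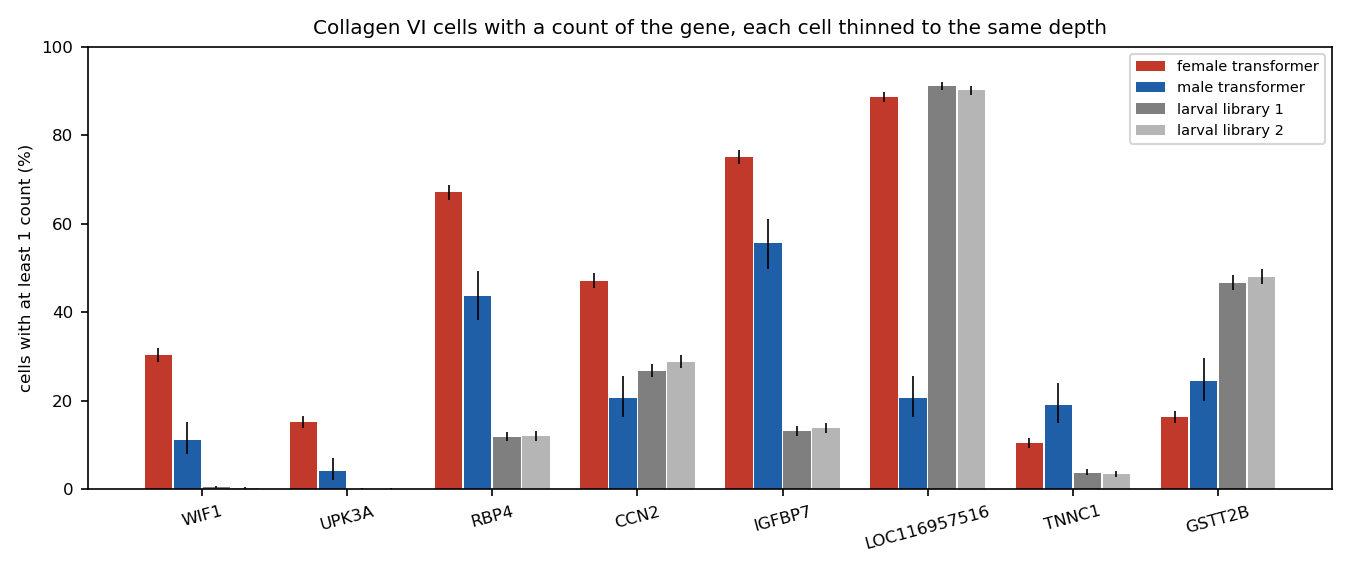
Share of collagen VI cells (%) with at least 1 count of a gene, each cell thinned to 1875 counts, in the 4 libraries. Bars start at 0 and lines are exact binomial 95% intervals. WIF1, UPK3A and RBP4 are more frequent in the female than in the male and least frequent in the larvae, while GSTT2B is more frequent in the male and most frequent in the larvae.

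Some members of each library carried genes used here as subset genes. Cells with at least 2 counts in the sum of TNNC1, WNT6, SFRP5, UPK3A and WIF1 made up 55.6% of female and 33.9% of male members, against 8.78% and 8.28% in the larvae. These shares were taken without thinning and are not matched for depth, with a median of 4900 counts in female and 3639 in male members. UPK3A, a uroplakin of urothelium that is also used as a mesothelial marker, had 145 CPM in female and 49.8 CPM in male members, against 0.866 and 1.07 CPM in the larvae, a log2 ratio of 1.54 (1.23 to 1.88), and 0.48 at the stricter collagen VI minimum. After thinning 15.2% of female and 4.15% of male members had a count of it, against 0.42% and 0.61% of tubule and germ cell barcodes. Pairs of genes were counted in another random thinning of the cells than the shares given above. It gave 32 male cells with WIF1 and 20 with UPK3A among 313, so the male shares vary with the draw. Of the female cells with WIF1 in that thinning, 11.1% had UPK3A, against 16.8% of those without WIF1. In the male 3 of 32 cells with WIF1 had UPK3A (9.38%), against 6.05% of those without. RBP4 accompanied both, in 83.7% of female cells with WIF1 and 60.0% of those without, and in 95% of those with UPK3A and 62.5% of those without. In the male 29 of 32 cells with WIF1 and 20 of 20 with UPK3A had RBP4, against 37.0% and 38.6% of the rest. TNNC1 was found in 9.35% of female cells with WIF1 and 10.9% of those without, and in 10.7% with UPK3A and 10.4% without. In the male these shares were 12.5% and 20.3%, and 10% and 20.1%. Whether cells with these genes are separate kinds of cells was not tested. The composition of the members and the level within a cell type are not separated by the sums above.

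Genes of other cell types moved with sex in the members, and their part in the results was not tested. Of 12 renal tubule markers 6 were found, with summed levels of 144 CPM in female and 20.6 CPM in male members, against 2229 and 25.8 CPM in barcodes without cells. A set of 5 abundant female germ cell genes, chosen from earlier results of these data, summed to 683 CPM in female and 27.9 CPM in male members, against 1330.4 and 29.9 CPM in barcodes without cells. The 10 NPRL3-locus genes, chosen the same way, summed to 28709.6 CPM in the female and 3321 CPM in the male, and to 121033 and 10509 CPM in barcodes without cells. The abundant LOC116951579 of that locus had 7352 and 284 CPM in members and 28831 and 1985 CPM in barcodes without cells. Each of these sums was lower in members than in barcodes without cells, and each was higher in the female. The tubule sum includes MIOX, which the cell rule limits, at 83.9 CPM in female members and 1694 CPM in female barcodes without cells. The lower tubule sum in female members was thus in part set by the rule. Without the 5% of members with most counts, the log2 ratio of LOC116956100, a female germ cell gene, fell from 4.88 to 1.80. Those of LOC116956113, LOC116956115 and LOC116947082 fell from 5.45, 5.18 and 4.54 to 3.07, 3.10 and 2.39. The germ cell limit removed 2 female barcodes, and whether female germ cells or doublets remained among the members was not tested.

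Germ cell genes of the male moved in the other direction. The 6 male germ cell genes, also chosen from earlier results and in part used by the germ cell limit, summed to 2.16 CPM in female and 32.8 CPM in male members, with 1 at 0 in each, against 1.17 and 486 CPM in barcodes without cells. The 15 germ cell markers found of 21 summed to 202 CPM in female and 209 CPM in male members, of which NANOS1 alone made 178 and 157 CPM. The other 14 summed to 23.2 CPM in female and 52.2 CPM in male members, with 2 at 0 in the male, against 35.5 and 776 CPM in barcodes without cells. These include PIWIL1 and SYCP3, which the germ cell limit uses. They had 12.1 and 6.68 CPM in male members, against 320 and 131 CPM in male barcodes without cells. The lower sum in male members was thus in part set by the rule. The part of these germ cell genes in the results was not tested either.

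The remaining marker lists were found in small part. The 5 supporting cell markers found of 18 summed to 40.3 and 25.5 CPM. The 4 endothelial markers found of 12 summed to 30.2 CPM in female and 14 CPM in male members. For neural and glial cells 3 of 12 markers were found, with 25.0 and 26.1 CPM, and for smooth muscle 1 of 12, MYLK, with 62.6 CPM in the female and 39.5 CPM in the male. The 2 epithelial and mesothelial markers found of 11, UPK3A and RBP4, summed to 2031 and 868 CPM. The retinol carrier gene RBP4 made 1885 and 818 CPM of these sums, and UPK3A only 145 and 49.8 CPM. Of 9 steroidogenic markers 1 was found, at 0.344 CPM in female and 0 in male members, and none of 13 blood and immune markers was found, so these cells could not be assessed.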

How the data were processed

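The deposited matrices hold whole-number counts per feature and barcode, per the file headers; no normalization was seen. Per the labels' protocols the kit was PIPseq T20 3′ v4.0. Aligner, counter, genome build and annotation are not given in the sources used here, nor whether a count is a read or a molecule. Barcodes had not been filtered to cells.

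The members and gene lists were chosen with earlier results of these data known. Of 21967 features, 24 without a gene name (3.03%, 4.98%, 4.64% and 5.03% of female, male, larva 1 and larva 2 counts) were left out. LOC numbers were matched by gene ID to RefSeq (11871 of 13987 matched, 688 gained a symbol), and 2 features can share 1 symbol. Reads of near-identical copies cannot be told apart. Counts were summed over members, scaled to CPM, and compared as log2 ratios with 0.5 added to each count, without a test, for genes of at least 5 mean CPM over the 4 libraries and 20 counts in 1 of them; the 13 mitochondrial genes were not compared. Intervals are exact Poisson (conditional binomial for ratios) or exact binomial, at 95%, and cover counting error only. Named genes were the 12 highest and 12 lowest with a symbol and the 4 highest and 4 lowest LOC genes, each with at least 100 counts in the higher library and a level there at or above that in its barcodes of 50 to 300 counts, up to 4 genes per list with the largest absolute ratio, all stromal markers found, and the 3 most different genes of the larval pair. Other list genes are named after their values were seen. No doublet caller was run. The calculation was tried on simulated Poisson counts with planted changes. These held no variation between cells and no RNA from outside cells, so the trial checks the calculation only. Python 3.11.15, numpy 2.4.6, scipy 1.17.1 and pandas 2.3.3 were used, with edgeR 4.0.16 in R 4.3.3 for the TMM factors of one alternative. No sequences are shown. One gene that the rule names is not reported here.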

Additional observations from a re-analysis of the deposited data

How the results depend on the processing

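The 21 alternatives bear on values without replicates, so they show the effect of the choices and not of sampling. No paired analysis was possible because each transformer sex has 1 library and the result comes from no test. Leaving out larva replicate 1 or 2 from the gene minimum gave 533 higher genes each time, 257 to 258 lower ones and a median absolute log2 ratio of 0.32; the larval pair itself cannot be compared with 1 library. Counts of genes past 2-fold varied with the expression minimum, which also set how many genes were compared. A mean of 1 CPM gave 1511 higher and 1026 lower of 12852 genes (larvae 69), and 20 CPM gave 197 and 81 of 3223 (larvae 10). No minimum but 1 count in each pair gave 2209 and 3232 of 18619, with a median absolute log2 ratio of 0.55 (larvae 1168 and 0.19). Thinning all sums to the smallest gave 413 lower genes and 385 in the larvae, with a larval median of 0.25; larvae thinned to the female and male totals, chosen after member numbers were seen, gave 148 and 0.20. A mean over cells gave 12 larval genes. Without genes at or above their member level in barcodes without cells, 2276 genes were compared. Of these 87 were higher, 122 lower and 2 past 2-fold in the larvae, so lower genes outnumbered higher ones, unlike in the main setting. A collagen VI minimum of 8 counts gave 859 higher and 858 lower of 7343 genes, with a median of 0.49. The member shares were then 3.59% (female), 0.151% (male), 15.2% and 14.9% (larvae). The shares were 10.6%, 0.452%, 18.5% and 18.7% at a doubled count minimum, 7.75%, 0.655%, 12.9% and 12.3% without barcodes listed in the other library of the stage, and 4.50%, 0.520%, 16.2% and 15.9% without cells of the 5 subset genes. Halved MIOX and germ cell limits gave 16.9% and 16.7% in the larvae. Without the 5% of members with most counts the shares were 9.63% (female), 16.9% and 16.5% (larvae), with 10 larval genes past 2-fold. Among values past 2-fold, signs turned for MSTN (0.10, doubled count minimum), for EMX2 (-0.38), KIF20B (0.41), TNNC1 (0.28) and the supporting cell median (-0.38) at a collagen VI minimum of 8, and for CCNB2 (-0.15) without the 5% of members with most counts; the cause was not tested. Of 51 named genes within 2-fold, 17 changed sign at a collagen VI minimum of 8, among them COL6A3 (-0.48), COL14A1 (-0.69), MYLK (-0.74), PDLIM5 (1.5), SUFU (0.30) and DHRS9 (0.33), and at most 7 did so under any other alternative. Other values for single genes and lists were labelled moved in 296 cases and same in 2522. These totals do not measure stability. Settings that change only the gene minimum or the larval pair cannot alter a single gene's ratio of female over male. The label also passed wide shifts, such as that of POSTN from 2.44 to 0.55 at a collagen VI minimum of 8. The male sum limits the precision: 4207 of the 7345 genes compared had at least 20 male counts.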

Other observations

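Genes of the cell cycle were centred on equal levels in the transformers. Of 42 compared, 3 were past 2-fold higher in the female and 3 lower, and the median log2 ratio was 0.03. CCNB2, a mitotic cyclin gene, had 135 CPM in female and 19.4 CPM in male members, but 83.4% of the female counts lay in 10 cells. GMNN, an inhibitor of replication licensing, had 49.1 CPM in the female and 19.4 CPM in the male, a log2 ratio of 1.32 that was 0.17 without the 5% of members with most counts and 2.19 at a collagen VI minimum of 8. The replication gene GINS2 had 44 female and 9 male counts and the kinesin gene KIF20B 37 and 8. Scaled to the summed counts, both were lower in the female. Over the settings the log2 ratio ran from -1.74 to -0.79 for GINS2 and from -4.09 to 0.41 for KIF20B. Summed over the list, members had 724 CPM in the female and 593 CPM in the male, against 1722 and 1699 CPM in larval libraries 1 and 2.

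Immediate early and heat shock genes, which respond to handling and dissociation in many tissues, summed to 18988 CPM in female and 19205 CPM in male members. Of 16 compared, 2 were past 2-fold higher, DUSP1 with 455 female and 17 male counts and HSPA13 with 265 and 9, and 0 were lower. NFKBIA, an inhibitor of NF-kappa-B, had 524 CPM in the female and 311 CPM in the male, against 1904 and 1688 CPM in the larvae. Between the larval libraries the widest ratios among genes with at least 100 counts in the higher library, and a level there at or above that in its barcodes without cells, were those of LOC116953153 (12.1 and 3.54 CPM, log2 ratio 1.77), IGFLR1 (6.02 and 14.5 CPM, -1.26) and LOC116951691 (13.9 and 7.12 CPM, 0.96).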
